A study of Mus musculus with 14 samples.

Results

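The proteasome is the protease complex that degrades ubiquitin-tagged proteins. Its subunit genes were followed here in the mouse brain after an intracerebral haemorrhage, the bleeding form of stroke. All genes of the deposited expression table whose name is Psm, a letter from a to g and a number were taken as members, which gave 48 of 31507 genes. The rule reads gene names, and the gene family itself was picked with earlier results of these data known. The study compared 3 groups of brain tissue. The acupuncture group had a haemorrhage made with autologous blood and received acupuncture at the scalp point GV20 for 7 consecutive days (n = 2 libraries per assay). The ICH group had the same haemorrhage without acupuncture (n = 2), and the sham group had a sham operation (n = 3). Autologous blood places the animal's own blood in the brain and models the blood clot, not the rupture of a vessel. The labels give the tissue as brain without a region and do not say whether the libraries of a group came from separate animals, so p-values measure the spread between these libraries only. Poly(A) RNA was fragmented. One library per sample was made from RNA pulled down with an antibody against N6-methyladenosine (m6A), a methyl mark on mRNA, and the other from input RNA. Levels below are FPKM of the 7 input libraries, that is fragments scaled by transcript length and by the mapped fragments of the library. They are written per library in the order of the replicate numbers.

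The proteasome has a barrel-shaped 20S core of stacked alpha and beta rings, in which 3 of the beta subunits cut proteins. The 19S cap on its ends recognises ubiquitin, unfolds the substrate with a ring of ATPases and feeds it into the core. Interferons and other immune signals induce replacement catalytic subunits, and the immunoproteasome built with them makes peptides suited to MHC class I. The brain normally holds mainly the constitutive form, and microglia are a known site of the immunoproteasome in inflamed brain. Of the members, 5 were treated as inducible: Psmb8, Psmb9 and Psmb10, which replace the catalytic subunits Psmb5, Psmb6 and Psmb7, and Psme1 and Psme2, which form the PA28 activator cap. The other 43 are the constitutive core and cap subunits, other activators, an inhibitor, assembly chaperones and 2 core subunits restricted to single tissues.

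Sequences near the RefSeq starts of members that rose and of constitutive counterparts can be compared by short motifs known from interferon and stress signalling. Windows of 250 bases before to 50 bases after the RefSeq start (GRCm38.p6) were matched for 40 of 48 members, in 43 windows, and were searched on both strands. The core of the interferon-stimulated response element, read here as GAAA, then NN, then GAAA again,, was found in 5 members (Psmb3, Psmd4, Psmd9, Psme1 and Psmg4) and in 3.44% of all 32851 windows. The interferon gamma activated site TTCNNNGAA was found in 3 (Psmb8, Psmd2 and Psmg1), against 8.30% of all windows. The letters GAA are common to these motifs. The antioxidant response element core TGACNNNGC was found in 6 (Psmb5, Psmb6, Psmc6, Psmd12, Psmd9 and Psme4), against 12.4% of all windows. Windows of 30 bases are shown for the 2 members that passed the test and for 2 constitutive catalytic subunits. Capitals mark the match, and each sequence reads 5′ to 3′ on the gene's strand. The Psme1 window is chr14:55578493-55578522 on the plus strand and holds the first motif on its opposite strand, the Psmb8 window is chr17:34198088-34198117 on the plus strand, the Psmb5 window is chr14:54618023-54618052 on the minus strand, and the Psmb6 window is chr11:70525338-70525367 on the plus strand.
Psme1: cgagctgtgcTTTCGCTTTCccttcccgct
Psmb8: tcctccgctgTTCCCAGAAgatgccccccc
Psmb5: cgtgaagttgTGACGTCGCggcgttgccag
Psmb6: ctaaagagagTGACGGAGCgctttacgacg
The first base of the match is at position 10 from the RefSeq start of Psme1, -97 of Psmb8, -47 of Psmb5 and -9 of Psmb6. The windows of Psmb9, Psmb10 and Psme2 hold none of the 3 motifs. For Psmb8, Psme1 and Psmb9 the 250 bases before the RefSeq start lie inside the deposited gene span. Those spans start at 34197721 for Psmb8 and 55578123 for Psme1, and end at 34187764 for Psmb9, which is on the minus strand. Sequence before those spans was not searched for these genes. A match describes letters only.

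The immunoproteasome genes Psmb8 and Psme1 were higher in both haemorrhage groups than in sham brains, and no constitutive subunit passed the test in the fit of all 3 groups. When acupuncture and sham were fitted alone, 13 of 41 constitutive and accessory members were also higher in acupuncture, against 14.9% of all genes tested. Psmb8 had the largest relative difference of the tested members in each of these comparisons. Psmb8, the inducible subunit with the cutting activity of Psmb5, had 4.93 and 5.14 FPKM in acupuncture, 3.12 and 2.25 FPKM in ICH, and 0.422, 0.400 and 0.482 FPKM in sham libraries. The 3 groups did not overlap, with acupuncture highest and sham lowest. The means were 5.04 ± 0.148 FPKM in acupuncture (SD, n = 2), 2.68 ± 0.611 FPKM in ICH (SD, n = 2) and 0.435 ± 0.0424 FPKM in sham (SD, n = 3). These are a 11.6-fold higher mean in acupuncture than sham and a 6.18-fold higher mean in ICH than sham. On the log2(FPKM + 1) scale, which understates the change of a gene this low, the difference was 2.07 for acupuncture against sham (SE 0.13, limma adjusted p = 0.000154). For ICH against sham it was 1.35 (SE 0.13, limma adjusted p = 0.00151). For the average of both haemorrhage groups against sham it was 1.71 (SE 0.11, limma adjusted p = 0.000145). Here and below, adjusted p-values are Benjamini-Hochberg values over the 13666 genes that averaged 1 FPKM or more, and 0.05 is the threshold. Psmb8 reached that mean only through the haemorrhage libraries. In bulk tissue, more cells of a type and more RNA per cell cannot be told apart.

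The gene lies in the MHC region (ENSMUSG00000024338; GRCm38 chromosome 17, 34197721 to 34201454, plus strand). Its neighbours there are the peptide transporter genes Tap1, which ends 495 bp before it, and Tap2, which starts 2072 bp after it. Psmb9 is on the other side of Tap1 on the opposite strand (ENSMUSG00000096727; 34181987 to 34187764), and the 2 genes overlap by 212 bp. The libraries kept strand, per the labels, and whether the authors' quantification used it is not known here.

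Psmb9, the inducible subunit that replaces Psmb6, had 1.46 and 2.06 FPKM in acupuncture, 1.42 and 0.780 FPKM in ICH, and 0.248, 0.514 and 0.217 FPKM in sham libraries. Every haemorrhage library was above every sham library, and the acupuncture libraries were above the ICH libraries, by a narrow margin for the nearest pair. Its mean over all libraries was under 1 FPKM, so it was not part of the main test. Without the filter, the difference was 1.05 for acupuncture against sham (SE 0.19, limma adjusted p = 0.0430) and 0.65 for ICH against sham (SE 0.19, limma adjusted p = 0.211). In that wider fit 4.09% and 1.97% of all genes were called higher in these comparisons.

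Psmb10, the inducible subunit that replaces Psmb7, was the most abundant of the 3 (ENSMUSG00000031897; GRCm38 chromosome 8, 105935735 to 105938444, minus strand). It had 14.8 and 16.4 FPKM in acupuncture, 11.97 and 7.64 FPKM in ICH, and 9.14, 10.5 and 9.68 FPKM in sham libraries. The acupuncture libraries were above all others, while the ICH libraries lay on both sides of the sham libraries. The difference was 0.62 for acupuncture against sham (SE 0.17, limma adjusted p = 0.0677) and -0.02 for ICH against sham (SE 0.17, limma adjusted p = 0.942). Psmb10 therefore did not pass in either comparison. For acupuncture against sham it did in 3 of 15 alternative settings, with limma adjusted p between 0.00452 and 0.283.

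Psme1 encodes PA28 alpha, a subunit of the activator ring that opens the core without ubiquitin recognition (ENSMUSG00000022216; GRCm38 chromosome 14, 55578123 to 55581529, plus strand). It had 17.9 and 19.03 FPKM in acupuncture, 17.1 and 18.8 FPKM in ICH, and 10.9, 9.28 and 11.7 FPKM in sham libraries. Acupuncture and ICH libraries overlapped, and all of them were above all sham libraries. The mean was 18.5 ± 0.794 FPKM in acupuncture (SD, n = 2), 17.95 ± 1.18 FPKM in ICH (SD, n = 2) and 10.6 ± 1.25 FPKM in sham (SD, n = 3). The log2 difference was 0.75 for acupuncture against sham (SE 0.12, limma adjusted p = 0.00800), 0.71 for ICH against sham (SE 0.12, limma adjusted p = 0.0166) and 0.73 for both haemorrhage groups against sham (SE 0.10, limma adjusted p = 0.00404). The call for ICH against sham was lost without sham replicate 1 (0.73, limma adjusted p = 0.0728), without sham replicate 2 (0.62, limma adjusted p = 0.0526) and without ICH replicate 2 (0.64, limma adjusted p = 0.0501). The call for acupuncture against sham was lost without acupuncture replicate 1 (0.79, limma adjusted p = 0.0507) or replicate 2 (0.70, limma adjusted p = 0.0704).

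Psme2 encodes PA28 beta, the partner of Psme1 in the ring, and lies 5911 bp away on the opposite strand (ENSMUSG00000079197; GRCm38 chromosome 14, 55587441 to 55591113). It had 11.2 and 11.02 FPKM in acupuncture, 8.90 and 2.95 FPKM in ICH, and 6.03, 5.32 and 5.73 FPKM in sham libraries. The acupuncture libraries were the highest, ICH replicate 1 lay above every sham library and ICH replicate 2 below every sham library. The difference was 0.86 for acupuncture against sham (SE 0.34, limma adjusted p = 0.169) and -0.10 for ICH against sham (SE 0.34, limma adjusted p = 0.873). It turned on the ICH library kept: ICH against sham was -0.76 without ICH replicate 1 (limma adjusted p = 0.00257) and 0.57 without ICH replicate 2 (limma adjusted p = 0.0231). Acupuncture against sham passed when either ICH library was left out of the shared fit (limma adjusted p = 0.000968 without ICH replicate 1 and 0.000921 without ICH replicate 2) and when these 2 groups were fitted alone (limma adjusted p = 0.000949). A separate gene named as its copy, Psme2b, had 9.18 and 9.62 FPKM in acupuncture, 6.72 and 5.87 FPKM in ICH, and 4.98, 4.96 and 6.61 FPKM in sham libraries. Reads that the 2 share could have been split between them.

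**Figure D1:**
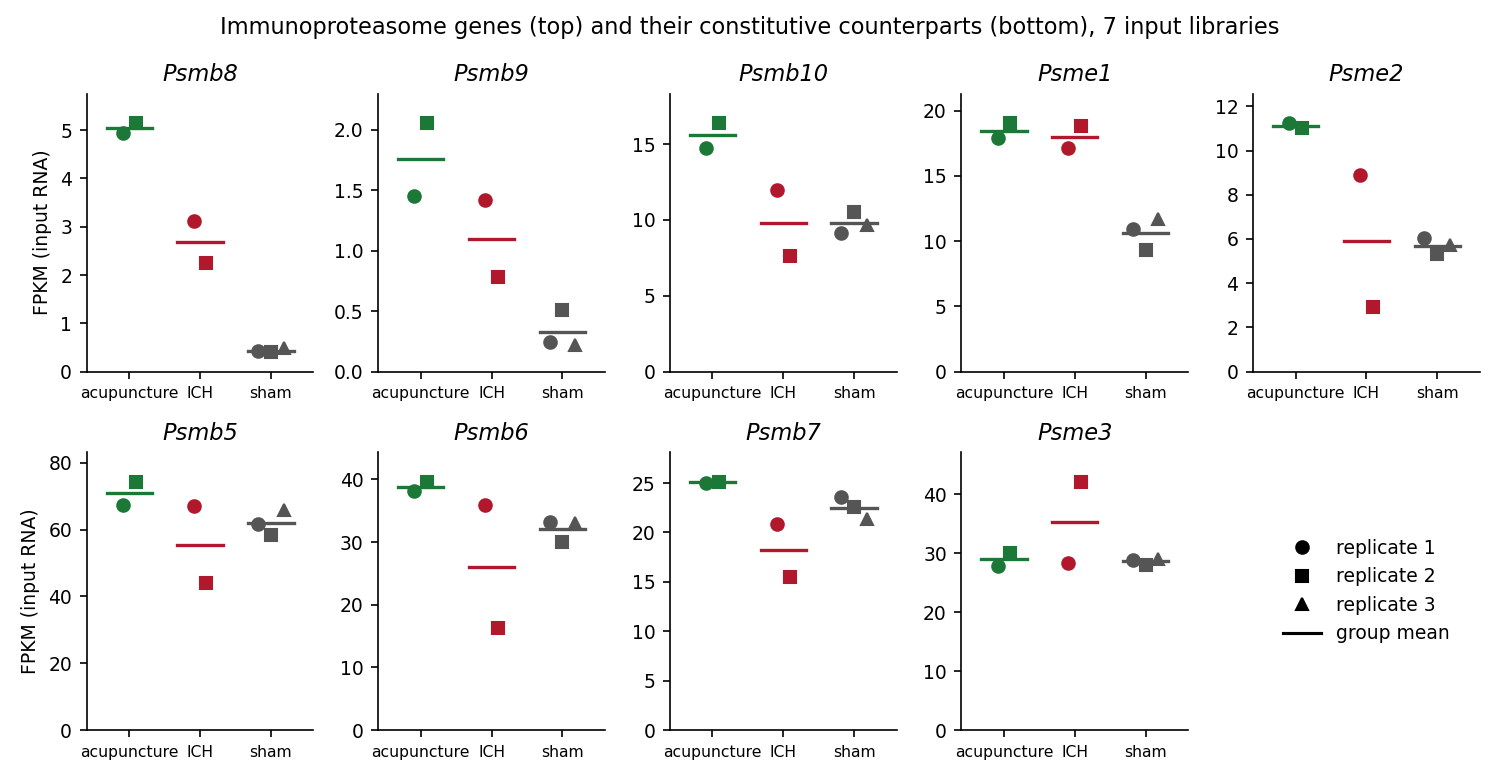
FPKM in the 7 input libraries, each panel with its own linear axis from 0. The top row holds the 5 immunoproteasome genes, and the bottom row the constitutive catalytic subunits Psmb5, Psmb6 and Psmb7 and the activator Psme3. Points are libraries, with the symbol giving the replicate, and lines are group means. Psmb8 and Psme1 sit above all sham libraries in acupuncture and in ICH, Psme2 and Psmb6 differ widely within the ICH pair (8.90 and 2.95 FPKM for Psme2, 35.9 and 16.3 FPKM for Psmb6), and the sham libraries of each gene lie close together apart from Psmb9.

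The constitutive catalytic subunits did not pass in any comparison in the fit of all 3 groups and 7 libraries. Psmb5, the subunit with chymotrypsin-like activity (ENSMUSG00000022193), had 67.3 and 74.3 FPKM in acupuncture, 67.0 and 43.9 FPKM in ICH, and 61.6, 58.5 and 65.8 FPKM in sham libraries. Both acupuncture libraries were above all sham libraries, and ICH replicate 2 was the lowest of all 7. The difference was 0.19 for acupuncture against sham (limma adjusted p = 0.578) and -0.19 for ICH against sham (limma adjusted p = 0.540). Psmb6, the subunit with caspase-like activity (ENSMUSG00000018286), had 38.1 and 39.6 FPKM in acupuncture, 35.9 and 16.3 FPKM in ICH, and 33.2, 30.0 and 33.0 FPKM in sham libraries. Here too ICH replicate 2 was lowest by a wide margin, and ICH replicate 1 was above every sham library. The differences were 0.27 for acupuncture against sham (limma adjusted p = 0.623) and -0.39 for ICH against sham (limma adjusted p = 0.436). With acupuncture and sham fitted alone, Psmb6 was called higher in acupuncture (limma adjusted p = 0.0354), as were 14.9% of all genes tested. Psmb7, the subunit with trypsin-like activity (ENSMUSG00000026750), had 25.0 and 25.1 FPKM in acupuncture, 20.9 and 15.5 FPKM in ICH, and 23.6, 22.6 and 21.3 FPKM in sham libraries. Both ICH libraries were below, and both acupuncture libraries above, every sham library. The differences were 0.15 for acupuncture against sham (limma adjusted p = 0.553) and -0.31 for ICH against sham (limma adjusted p = 0.242). Psme3, the nuclear activator PA28 gamma (ENSMUSG00000078652), had 27.8 and 30.1 FPKM in acupuncture, 28.3 and 42.1 FPKM in ICH, and 28.9, 28.0 and 29.0 FPKM in sham libraries. Apart from ICH replicate 2, where it was highest, the libraries were alike. The difference was 0.01 for acupuncture against sham (limma adjusted p = 0.971), a sign that turned under other scalings of the libraries, and 0.26 for ICH against sham (limma adjusted p = 0.368).

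A ratio of an inducible subunit to the subunit it replaces, taken within a library, does not depend on the scaling of that library. Psmb8 was 7.32% and 6.92% of Psmb5 in acupuncture, 4.65% and 5.13% in ICH, and 0.685%, 0.684% and 0.732% in sham libraries. Psmb9 was 3.82% and 5.19% of Psmb6 in acupuncture, 3.95% and 4.78% in ICH, and 0.748%, 1.72% and 0.657% in sham libraries. Psmb10 was 59.1% and 65.1% of Psmb7 in acupuncture, 57.3% and 49.3% in ICH, and 38.7%, 46.6% and 45.3% in sham libraries. For each of the 3 pairs, all 4 haemorrhage libraries were above all 3 sham libraries, ICH replicate 2 included. Summed, the inducible subunits made up 14.0% and 14.5% of the catalytic subunit FPKM in acupuncture, 11.8% and 12.4% in ICH, and 7.65%, 9.34% and 7.95% in sham libraries. In ICH replicate 2 the share was high beside a low constitutive sum. The inducible sum was 21.2 and 23.6 FPKM in acupuncture, 16.5 and 10.7 FPKM in ICH, and 9.81, 11.4 and 10.4 FPKM in sham libraries. The constitutive sum was 130.4 and 139 FPKM in acupuncture, 124 and 75.7 FPKM in ICH, and 118, 111 and 120.2 FPKM in sham libraries. ICH replicate 2 was thus within the sham range in its inducible sum and below it in its constitutive sum. Psmb10 carried most of the inducible FPKM in sham brains, and the constitutive subunits made up the larger share of catalytic FPKM in every library.

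Tested as the mean difference of log2(FPKM + 1) between the 2 genes of a pair, the 4 haemorrhage libraries exceeded sham by 1.71 for Psmb8 over Psmb5, 0.91 for Psmb9 over Psmb6 and 0.38 for Psmb10 over Psmb7. Each gave p = 0.0571 in a two-sided exact permutation test, the smallest p that 4 libraries against 3 allow, so this design cannot pass 0.05. The Psme1 over Psme3 difference was 0.59 (exact permutation p = 0.0571), and that of Psme2 over Psme3 was 0.24 (exact permutation p = 0.743). Psme3 is another activator and not a subunit that Psme1 or Psme2 replaces. Adjusted over the 5 pairs, the p-values were 0.0714 for the first 4 and 0.743 for the last (Benjamini-Hochberg, two-sided exact permutation). Unlike the percentages above, these differences depend on the scaling of the library, since 1 was added to each FPKM. They understate the change for Psmb8 and Psmb9, which were under 1 FPKM in every sham library.

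**Figure D2:**
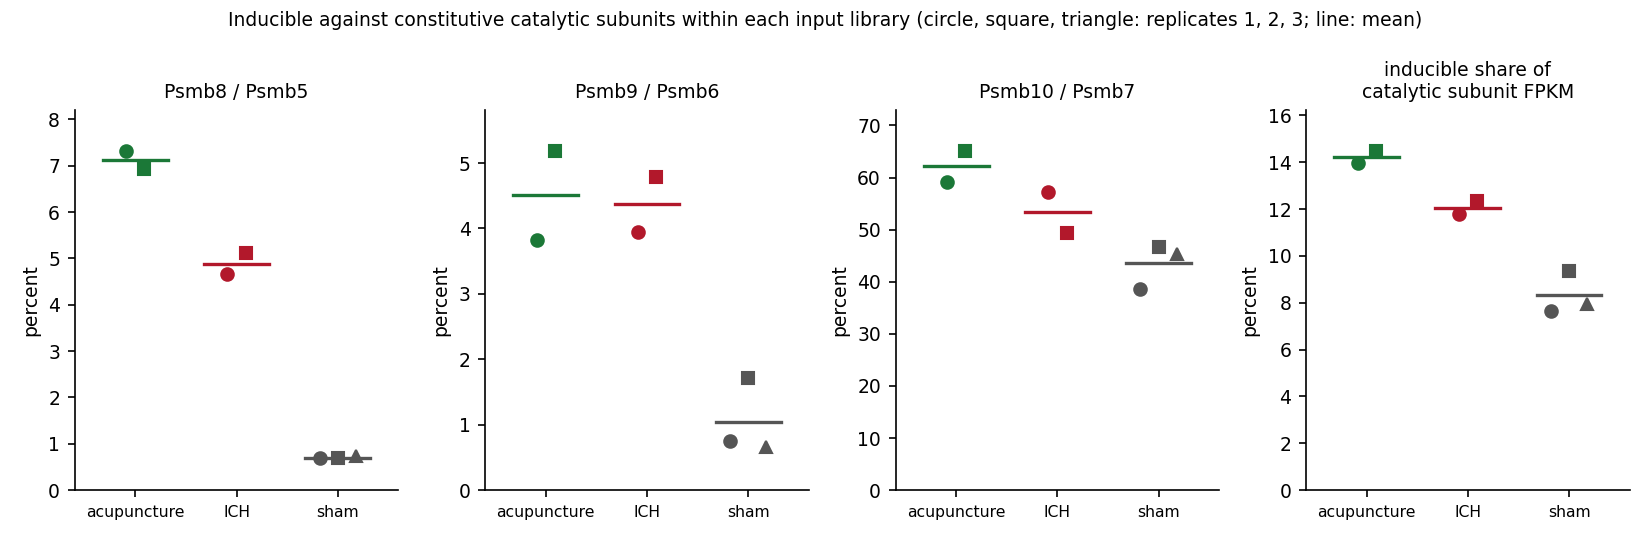
Inducible over constitutive catalytic subunit within each input library, in percent of FPKM, and the inducible share of the summed catalytic FPKM, on linear axes from 0; points are libraries with the symbol giving the replicate, and lines are group means. In each panel the 4 haemorrhage libraries lie above the 3 sham libraries, from 4.65% against at most 0.732% for Psmb8 over Psmb5 to 49.3% against at most 46.6% for Psmb10 over Psmb7.

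Of the 48 members, 45 could be tested. Those below the filter were Psmb9 and the tissue-restricted subunits Psma8, a testis form of an alpha subunit, at 0.0553 to 0.298 FPKM, and Psmb11, the thymus form of a catalytic subunit, at 0 to 0.1002 FPKM. In acupuncture against sham, 2 of 45 members were higher (Psmb8 and Psme1) and 0 lower, against 8.47% and 3.22% of all genes tested. In ICH against sham the same 2 were higher and 0 lower, against 4.95% and 0.724% of all genes. In both haemorrhage groups against sham the same 2 were again higher and 0 lower, against 8.06% and 2.56%. The shares of members called higher were close to or below the background. These 3 comparisons share the sham libraries. Among all genes, the split of calls in acupuncture against sham was 1158 higher and 440 lower as deposited, and 998 higher and 767 lower when the libraries were scaled to equal totals. In both haemorrhage groups against sham it was 1102 higher and 350 lower as deposited, and 911 higher and 521 lower after quantile normalization.

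Split by role, the 41 tested constitutive and accessory members had 0 calls in each of these comparisons in the fit of all 3 groups. In acupuncture against sham, 13 of 41 were called higher with only these 2 groups fitted or without either ICH library. In ICH against sham, 3 were called higher and 20 lower without ICH replicate 1. That fit holds 1 ICH library, and its shares over all genes are given below. In the fit of acupuncture and sham alone, 14.9% of all genes were called higher. At an unadjusted limma p under 0.05 there were 6 of 41 in acupuncture against sham, against 25.5% of all genes tested. In ICH against sham there were 0, against 21.5%, and in both haemorrhage groups against sham 3, against 24%. Their median log2 difference was 0.17 in acupuncture against sham, beside 0.04 for all genes, and -0.09 in ICH against sham, beside -0.01 for all genes. The 4 tested immunoproteasome genes had medians of 0.80 in acupuncture against sham and 0.34 in ICH against sham. In ICH against sham the constitutive median was -0.20 without ICH replicate 1 and 0.069 without ICH replicate 2, and the immunoproteasome median 0.23 and 0.60. Scaling the libraries to equal totals lowered the constitutive median in acupuncture against sham to 0.09, and the median of all genes to -0.05.

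By complex, all 7 alpha ring genes, all 6 ATPases, all 11 non-ATPase cap subunits and all 7 tested beta ring genes outside the immunoproteasome had positive differences in acupuncture against sham with FPKM as deposited. With libraries scaled to equal totals, this held for 6 of 7 alpha ring genes, 5 of 6 ATPases, 7 of 11 cap subunits and all 7 beta ring genes, since Psma3, Psmc5, Psmd1, Psmd2, Psmd7 and Psmd12 fell just below zero. Their medians as deposited were 0.23 for the alpha ring, 0.33 for the structural beta subunits Psmb1 to Psmb4, 0.19 for the constitutive catalytic subunits, 0.20 for the ATPases and 0.16 for the other cap subunits. Of all 45 members, 44 were positive as deposited, beside 7630 of all 13666 genes tested. After scaling to equal totals 37 members were positive, and after quantile normalization 40. In 37 members every acupuncture library was above every sham library, against 31.8% of all genes tested. Psmd5, a chaperone of cap assembly, was the member below zero as deposited, at -0.03 (limma adjusted p = 0.878). Psmd8, a cap lid subunit, had 24.3 and 23.6 FPKM in acupuncture, 20.1 and 20.4 FPKM in ICH, and 18.8, 20.3 and 18.4 FPKM in sham libraries (acupuncture against sham 0.31, SE 0.09, limma adjusted p = 0.0747). Its acupuncture libraries were the highest 2, and the others were close together.

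In ICH against sham the median was below zero in most classes outside the immunoproteasome. It was -0.31 for the constitutive catalytic subunits, -0.29 for the core assembly chaperones, -0.21 for the cap assembly chaperones, -0.18 for the other cap subunits, -0.15 for structural beta subunits, -0.03 for the alpha ring, -0.01 for ATPases and 0.0025 for the other activators and the inhibitor. In 6 of 45 members every ICH library was above every sham library, against 21.5% of all genes tested, and in 3 every ICH library was below, against 18.8%. Of the members not called, the smallest p above zero was that of Psmb2, a structural beta subunit, at 0.33 (limma adjusted p = 0.249). Below zero the smallest were those of Psmb7, given above, and Psmd7, a lid subunit, at -0.18 (limma adjusted p = 0.316). Next came Psmd4, a ubiquitin receptor of the cap, at -0.46 (limma adjusted p = 0.325). Of the 41 constitutive and accessory members, 0 reached an unadjusted limma p under 0.05, against 21.5% of all genes tested. Psmd4 had 26.5 and 25.8 FPKM in acupuncture, 23.1 and 11.2 FPKM in ICH, and 22.5, 23.8 and 21.5 FPKM in sham libraries. ICH replicate 2 alone was low for this gene. Psmb2 had 42.2 and 37.0 FPKM in acupuncture, 31.6 and 43.8 FPKM in ICH, and 29.4, 29.0 and 29.8 FPKM in sham libraries. All 4 haemorrhage libraries were above sham for Psmb2, and in both haemorrhage groups against sham it had a difference of 0.37 (SE 0.12, limma adjusted p = 0.117). Psmc4, an ATPase, was close to it in that comparison, with 28.7 and 31.5 FPKM in acupuncture, 28.4 and 27.1 FPKM in ICH, and 22.3, 25.4 and 24.5 FPKM in sham libraries (0.26, limma adjusted p = 0.114). Its haemorrhage libraries were also all above its sham libraries. Such a separation was seen in 5 of 45 members, Psmb8 and Psme1 among them, against 14.4% of all genes tested.

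**Figure D3:**
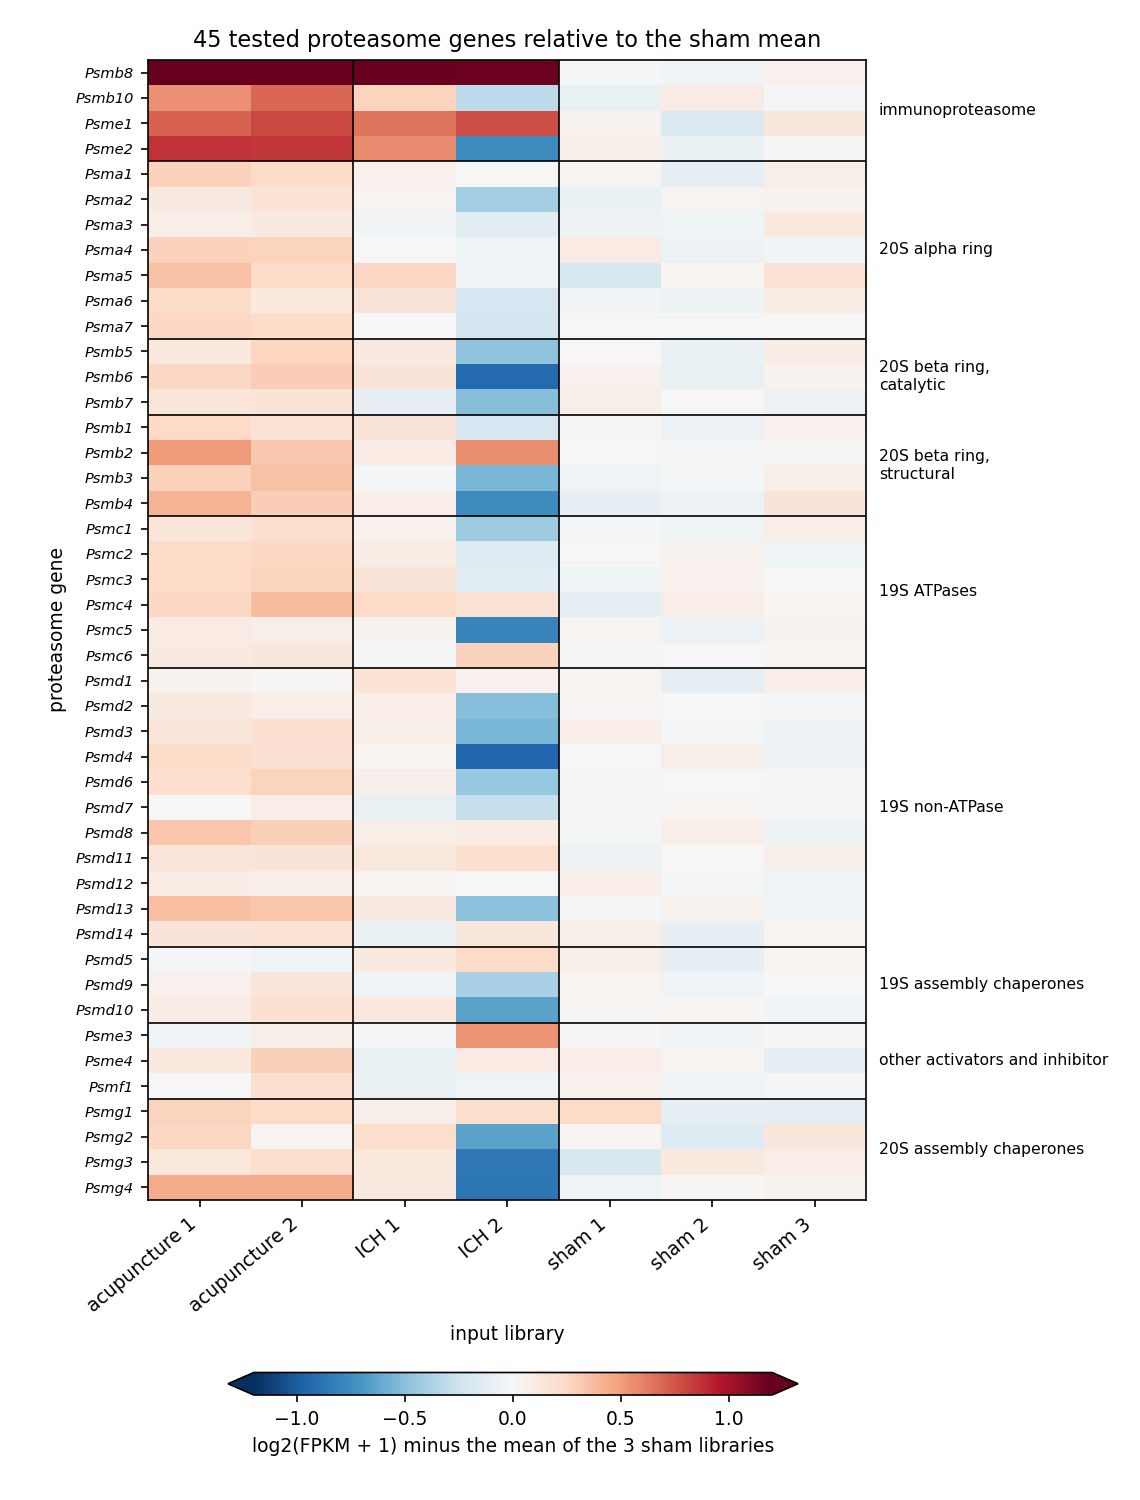
Heat map of the 45 tested proteasome genes in the 7 input libraries, grouped by role; colour is log2(FPKM + 1) minus the mean of the 3 sham libraries, with values past 1.2 in either direction drawn in the end colours. Psmb8 is the only gene with a difference over 1 in each haemorrhage library, Psme1 is above sham in all 4, most other genes are slightly above sham in both acupuncture libraries, and most are below it in ICH replicate 2.

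In level, the most abundant members in sham brains were Psmc5, an ATPase, at a mean of 68.8 FPKM, Psmb5 at 62.0 FPKM, the ATPase Psmc1 at 54.5 FPKM and the alpha subunit Psma6 at 45.1 FPKM. Psmc5 had 73.6 and 72.2 FPKM in acupuncture, 71.0 and 39.4 FPKM in ICH, and 70.5, 65.3 and 70.7 FPKM in sham libraries, and it overlapped with Psmb5 in all 3 groups. In sham, Psmb5, Psmc1 and Psma6 did not overlap with each other. Psmb8 ranked 41st of 48 in acupuncture, 43rd in ICH and 45th in sham, and Psmb9 ranked 46th in each group. Psme1 ranked 25th in acupuncture, 19th in ICH and 32nd in sham. Thus the members that differed most relative to sham were among the lowest in level, with the exception of Psme1.

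No member passed in acupuncture against ICH, 0 higher and 0 lower by limma, against 0.0366% and 0% of all genes tested. At an unadjusted limma p under 0.05 there were 12 of 45 members, against 20.2% of all genes. The difference was positive in 40 of 45 members, beside 7654 of all 13666 genes tested, or in 37 members after scaling to equal totals. In 34 members both acupuncture libraries were above both ICH libraries, against 28.8% of all genes. In 2 members both acupuncture libraries were below both ICH libraries, against 20.7% of all genes. Psmb8 had the smallest p, with a mean 1.88-fold higher in acupuncture than in ICH and a log2 difference of 0.72 (95% confidence interval 0.40 to 1.05, limma adjusted p = 0.158). It passed in 1 of 14 alternatives, without ICH replicate 1 (0.89, limma adjusted p = 0.00401), and its adjusted p reached 0.542 in the others. Psmb10 differed by 0.64 (limma adjusted p = 0.199), Psmb3, a structural beta subunit, by 0.59 (SE 0.17, limma adjusted p = 0.198), Psme2 by 0.96 (limma adjusted p = 0.234) and Psme1 by 0.04 (95% confidence interval -0.26 to 0.34, limma adjusted p = 0.860). The sign for Psme1 turned when libraries were scaled to equal totals (-0.05) or quantile normalized (-0.02). The members with the smallest p below zero were Psmd5 at -0.21 (limma adjusted p = 0.289), Psme3 at -0.25 (limma adjusted p = 0.414) and Psmd1, a scaffold of the cap, at -0.08 (limma adjusted p = 0.654). This comparison and ICH against sham share the ICH libraries, in opposite places.

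ICH replicate 2 stood apart. It was lower than ICH replicate 1 in 34 of 45 members, or 75.6%, against 52.8% of all genes tested, with a median difference of -0.34 beside -0.03 for all genes. In the acupuncture pair the median difference over members was 0.02. The summed FPKM of the 48 members was 1040 and 1047 in acupuncture, 949 and 756 in ICH, and 886, 873 and 910 in sham libraries, so ICH replicate 2 was the lowest library. Genes with a short span fell further: the shorter 23 members had a median of -0.51 with 19 lower, and the longer 22 a median of -0.27 with 15 lower. Across the 45 members the difference correlated with log2 gene span at r = 0.43 and rho = 0.40, beside r = 0.16 and rho = 0.23 over all 13666 genes. The points share the same 2 libraries. Psme2 (-1.33) and Psmb6 (-1.09) were among the lowest, while Psme3 (0.56) and Psmb2 (0.46) were higher in ICH replicate 2. Across all genes the ICH libraries correlated at r = 0.942, beside 0.976 for the acupuncture pair and 0.983 to 0.988 for the sham pairs.

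**Figure D4:**
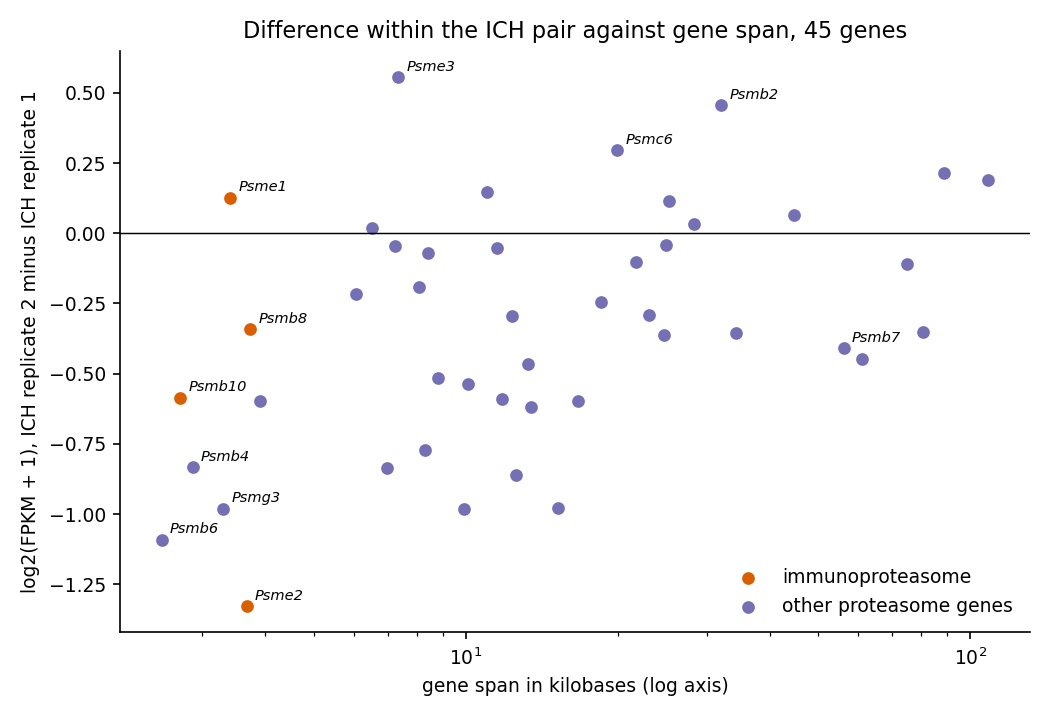
Difference between ICH replicate 2 and ICH replicate 1 in log2(FPKM + 1) against gene span in kilobases (log axis) for the 45 tested members; each point is a gene, with the immunoproteasome genes in their own colour. Most points lie below zero, Psme2 (-1.33) and Psmb6 (-1.09) are among the lowest at short spans, and Psme3 and Psmb2 lie above zero.

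The calls depended on these 2 libraries. Without ICH replicate 1, 5 members were higher and 21 lower in ICH against sham, against 18.3% and 19.9% of all genes, and 28 were higher and 1 lower in acupuncture against ICH, against 23% and 14.4%. ICH replicate 2 then stood alone and its spread was taken from the other groups. Without ICH replicate 2, ICH against sham called 2 members higher, Psmb8 and Psme2, against 4.53% of all genes, and acupuncture against ICH called 0, against 0.0512%. Where the acupuncture and sham libraries were fitted without the ICH libraries, 17 members were higher in acupuncture, against 14.9% of all genes. They were Psmb8, Psmb10, Psme1 and Psme2, the alpha subunits Psma4 and Psma7, the beta subunits Psmb2, Psmb3, Psmb4 and Psmb6, the ATPases Psmc2, Psmc3 and Psmc4, the cap subunits Psmd6, Psmd8 and Psmd13, and the core assembly chaperone Psmg4. Psmg4 had 10.6 and 10.6 FPKM in acupuncture, 8.23 and 3.68 FPKM in ICH, and 7.25, 7.62 and 7.80 FPKM in sham libraries. Its acupuncture libraries were highest and its ICH libraries lay on both sides of sham. In that comparison the ICH libraries enter only through the shared estimate of spread.

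Markers of several cell types moved with the immunoproteasome genes, and others moved the opposite way. The summed FPKM of 8 microglia and macrophage markers was 322 and 321 in acupuncture, 290 and 186 in ICH, and 63.1 to 82.1 in sham libraries. Of the 7 tested, 6 were higher and 1 lower (P2ry12, a receptor of resting microglia) in acupuncture against sham (limma adjusted p under 0.05). In ICH against sham, 6 were higher and 0 lower. Over all genes tested, 8.47% were called higher and 3.22% lower in acupuncture against sham, and 4.95% and 0.724% in ICH against sham. Summed astrocyte markers were 759 and 627 FPKM in acupuncture, 669 and 581 in ICH, and 232 to 274 in sham libraries. Most of that difference was Gfap, at 451 and 362 FPKM in acupuncture, 394 and 338 in ICH, and 24.0 to 29.4 in sham. Of the 5 astrocyte markers, 2 were called higher and 0 lower in acupuncture against sham and in ICH against sham. Aldoc was below its sham range in ICH replicate 2. Summed endothelial markers were 71.7 and 69.5 FPKM in acupuncture, 49.6 and 40.7 in ICH, and 30.9 to 37.7 in sham libraries. The 6 T and NK lymphocyte markers summed to 2.62 and 2.05 FPKM in acupuncture, 3.06 and 5.73 in ICH, and 3.95 to 4.79 in sham libraries. Most of the sham sum was Cd4, at 3.51 to 4.12 FPKM in sham, 1.22 and 0.913 in acupuncture, and 2.06 and 2.59 in ICH. The others had at most 1.39 FPKM in any library. Of these, Cd8a and Nkg7 were higher in every haemorrhage library than in every sham library, beside 14.4% of all genes tested. Both were under the filter and were not tested. The nearest Nkg7 libraries had 0.182 FPKM in acupuncture and 0.169 FPKM in sham. Cd3e, Cd3g and Trac overlapped with sham. Summed oligodendrocyte markers were 599 and 381 FPKM in acupuncture, 649.9 and 618 in ICH, and 818 to 1048 in sham libraries, with 2 of 5 called lower in acupuncture against sham and 0 in ICH against sham. Erythroid markers summed to 232 and 319 FPKM in acupuncture, 80.4 and 181 in ICH, and 187 to 379.9 in sham libraries. Choroid plexus markers summed to 337 and 1.40 FPKM in the acupuncture libraries, 330 and 344 in ICH and 443 to 477 in sham. Neuronal markers summed to 649 and 614 FPKM in acupuncture, 677 and 920 in ICH, and 715 to 787 in sham libraries, so they were present as the brain label implies. No marker of these lists was at 0 in all libraries. The part of these markers in the Psmb8 and Psme1 differences was not tested.

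Genes that work beside the immunoproteasome were counted from fixed lists. Of 9 tested genes that load peptides on MHC class I, 8 were higher in acupuncture than sham, against 8.47% of all genes tested. Against sham, 6 were higher in ICH, beside 4.95% of all genes, and 0 were lower in either comparison. H2-K1, a classical class I heavy chain, differed by 2.37 in acupuncture against sham (limma adjusted p = 0.000326) and by 1.85 in ICH against sham (limma adjusted p = 0.00146). Tap1, the peptide transporter between Psmb8 and Psmb9, had 1.93 and 2.49 FPKM in acupuncture, 1.82 and 1.94 FPKM in ICH, and 0.50, 0.39 and 0.45 FPKM in sham libraries. It differed by 1.15 in acupuncture against sham (limma adjusted p = 0.00153) and by 0.997 in ICH against sham (limma adjusted p = 0.00439). Its haemorrhage libraries were all above its sham libraries, as in 14.4% of all genes tested. Every sham library was below 1 FPKM, so Tap1, like Psmb8, reached the filter only through the haemorrhage libraries.

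Of 9 tested genes for factors that regulate proteasome genes, 5 were higher in acupuncture than sham, against 8.47% of all genes tested. Against sham, 4 were higher in ICH, beside 4.95% of all genes, and 0 were lower in either comparison. Irf8, one of the 9, had 0.61, 0.63 and 0.65 FPKM in sham libraries and reached the filter only through the haemorrhage libraries. Irf1, an interferon-induced transcription factor known to bind the shared Psmb9 and Tap1 promoter, had 2.74 and 3.47 FPKM in acupuncture, 2.22 and 2.20 FPKM in ICH, and 1.11, 1.15 and 1.07 FPKM in sham libraries. Nfe2l1, which drives constitutive proteasome genes when the complex is inhibited, had 55.5 and 51.2 FPKM in acupuncture, 54.9 and 29.4 FPKM in ICH, and 56.5, 57.5 and 55.4 FPKM in sham libraries. It was low in ICH replicate 2 only and did not pass. Of 11 tested proteasome partners outside the Psm names 0 passed in either comparison.

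Nearly all members carried m6A peaks. The authors called peaks once per group, so the values that follow are the authors', have no replicate spread and describe 3 lists. The expression table also holds 2 input columns, headed as ICH and EA, that match no sample used here, and whether those libraries entered the peak lists is not known. Those lists held 111 peaks on 47 members in acupuncture, 124 on 46 in ICH and 111 on 46 in sham. In 46 members a peak was listed in all 3 groups with at least 1 shared bp. The exceptions were Psma8 and Psmb11, and the only Psmb11 peak was in the acupuncture list. The 3′UTR held 51.4% of member peaks in acupuncture, 47.6% in ICH and 53.2% in sham, beside 54.7% of all peaks in acupuncture, 52.3% in ICH and 54.5% in sham. Introns held 14.4% of member peaks in acupuncture, 12.9% in ICH and 9.01% in sham, beside 5.01% of all peaks in acupuncture, 5.28% in ICH and 4.64% in sham.

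The strength of a peak, as log2 of pulled-down over input signal, was highest in ICH. The strongest peak of a gene could lie at another site in another group. Over the strongest peak of each of the 46 members, the median was 1.49 in acupuncture, 1.97 in ICH and 1.40 in sham. The value was higher in ICH than in sham in 42 of 46 members, higher in acupuncture than in ICH in none of the 46, and higher in acupuncture than in sham in 34 of 46. Over all 15903 genes with a peak in the 3 lists, it was higher in ICH than in sham in 74.9%, higher in acupuncture than in ICH in 22.8% and higher in acupuncture than in sham in 56.9%. The medians over those genes were 1.71 in acupuncture, 2.02 in ICH and 1.66 in sham, the same order of the groups as over the members. Psmb1, a structural beta subunit, had the highest value in acupuncture, at 2.06, with 2.62 in ICH and 1.87 in sham. Psmb4, also structural, had 2.01 in acupuncture, 2.63 in ICH and 1.82 in sham. Other high members were Psma3, Psmg3, Psmd4, Psmc5, Psmd7 and Psme4. Psme4, the activator PA200, had 1.80 in acupuncture and 2.48 in sham, both at 5′UTR peaks, and 1.81 in ICH at a 3′UTR peak. Its value was thus lower in ICH than in sham, at another site. The same order of ICH and sham was seen in Psmc4 and Psmd11, at 3′UTR peaks in both groups. Psme1 had it too, with an exonic peak in ICH set against a 3′UTR peak in sham. Among the immunoproteasome genes, Psmb10 had 1.69 in acupuncture, 2.34 in ICH and 1.40 in sham. Psmb8 had 1.75 in acupuncture at a 5′UTR peak, and 1.87 in ICH and 1.17 in sham at 3′UTR peaks. Psme1 had 1.15 in acupuncture, 1.19 in ICH and 1.22 in sham.

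**Figure D5:**
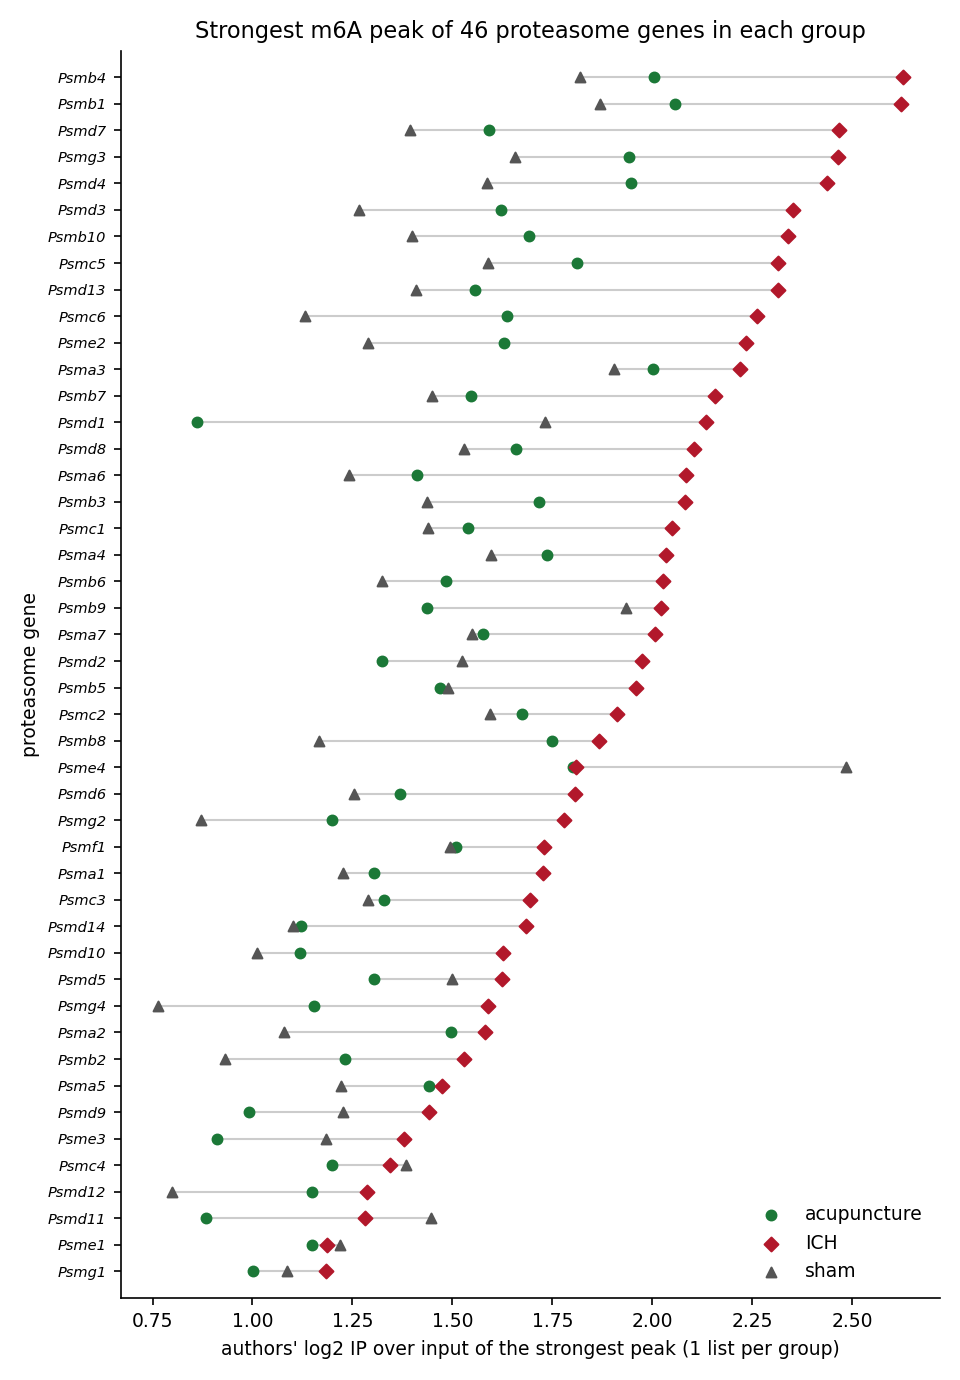
The authors' log2 of pulled-down over input signal at the strongest m6A peak of 46 proteasome genes, with 1 value per group and no replicates, sorted by the ICH value. The strongest peak of a gene can lie at another site in another group. ICH diamonds lie to the right of the acupuncture circles in all 46 genes and of the sham triangles in 42, and Psme4 has its highest value in sham (2.48).

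In the authors' deposited table of acupuncture against ICH, 68 peaks on 42 members were listed and all 68 were lower in acupuncture, beside 81.3% of all listed peaks. In the authors' deposited table of ICH against sham, 81 peaks on 43 members were listed, 76 higher and 5 lower in ICH. That is 93.8% higher, beside 78.7% of all listed peaks. In the authors' deposited table of acupuncture against sham, 58 peaks on 34 members were listed, 41 higher and 17 lower in acupuncture. That is 70.7% higher, beside 58.2% of all listed peaks. The first 2 tables share the ICH libraries and the last 2 the sham libraries. The authors' deposited table of acupuncture against sham held 38 of the 58 at the authors' adjusted p under 0.05, 30 higher and 8 lower, beside 37.6% and 26.1% of all listed peaks.

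At the Psmb5 3′UTR (GRCm38 chromosome 14, 54614119 to 54616651), the peak with the smallest p of the members in the authors' deposited table of ICH against sham, log2 enrichment was 1.91 in ICH and 1.11 in sham, a difference of 0.81 (authors' adjusted p = 1.69e-51). The same span differed by -0.45 in acupuncture against ICH in the authors' deposited table. Psmd3, a lid subunit, had a difference of 1.07 in ICH against sham and of -0.69 in acupuncture against ICH in the authors' deposited tables. Psmd2, the cap's other scaffold, had 0.90 and -0.67 at its 3′UTR, while its 5′UTR peak was lower in ICH than sham, at -0.43, in those deposited tables. The other peaks lower in ICH than sham in the authors' deposited table were on Psmd5 (-0.24), Psmc4 (-0.20) and Psmd11 (-0.50 and -0.88). Psmd11, a lid subunit, was also lower in acupuncture than sham in the authors' deposited table (-0.67).

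The 5 immunoproteasome genes had 6 peaks in the authors' deposited table of acupuncture against ICH, all lower in acupuncture, and 5 in that of ICH against sham, all higher in ICH. At the 3′UTR of Psmb10, the authors' deposited tables gave -0.60 for acupuncture against ICH (authors' adjusted p = 2.03e-09), 0.97 for ICH against sham (authors' adjusted p = 1.04e-21) and 0.34 for acupuncture against sham (authors' adjusted p = 0.00256). At the 3′UTR of Psmb8 (chromosome 17, 34200787 to 34201448), the authors' deposited table gave 0.58 for ICH against sham (authors' adjusted p = 0.0804), and a peak within that span -0.87 for acupuncture against ICH (authors' adjusted p = 1.59e-08). The Psmb8 RNA was thus higher in input and its listed peak weaker in acupuncture than in ICH, the first without passing the test. At the 3′UTR of Psme2 the authors' deposited tables gave -0.92 for acupuncture against ICH and 0.93 for ICH against sham. At exonic peaks of Psme1 they gave -0.47 for acupuncture against ICH and 0.78 for ICH against sham. At 3′UTR peaks of Psmb9 the authors' deposited tables gave -0.85 and -1.63 for acupuncture against ICH, and 2.75 for ICH against sham (authors' adjusted p = 0.0453), the largest listed difference of a member in that comparison, at a gene of low input level. The Psme1 window printed above lies within a 5′UTR peak (chromosome 14, 55578384 to 55578533) that the authors' deposited table lists lower in acupuncture than sham (-0.65, authors' adjusted p = 0.130). Across 41 members, the ICH minus sham difference at 3′UTR peaks and the input difference between ICH replicates 2 and 1 correlated at r = -0.40 and rho = -0.74. Both measures use the ICH libraries, and the part of that library in the m6A lists was not tested.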

How the data were processed

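Mouse brain RNA was measured in 14 libraries, 7 pulled down with an m6A antibody and 7 of input. The deposited expression table gives FPKM per gene for input RNA, computed by the authors. Tools in the submitters' processing notes are HISAT2, StringTie, fastp, edgeR and HOMER, with neither role nor version. The notes give the human build GRCh38, while the deposited file holds mouse Ensembl IDs. Coordinates match mouse GRCm38: 47 of 48 members lie on the RefSeq chromosome with ends within 1000 bp. Of 9 FPKM columns, 2 matched no sample and were not used. The columns headed control and EA were taken as sham and acupuncture by elimination, since those are the groups left after ICH. Whole depth is unknown, since the deposited FPKM hold no counts. Total FPKM ranged from 179810 to 198472 per library. Peak lists were deposited per group and differential tables per comparison, with the authors' log2 of pulled-down over input, log2 differences, p-values and adjusted p-values.

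From these, log2(FPKM + 1) was fitted with limma 3.58.1 in R 4.3.3, with a mean-variance trend, over the 13666 genes that averaged 1 FPKM or more, in 1 fit of all 3 groups, two-sided, with Benjamini-Hochberg adjustment. The average of both haemorrhage groups weights them equally. On simulated data for 13666 genes with 200 changed, this fit called 73% of genes with a log2 change of 1 in acupuncture against sham, and 68.5% for ICH against sham. Genes not changed made up 1.35% of those called in acupuncture against sham and 4.86% in ICH against sham. For both haemorrhage groups against sham they made up 9.25%. The simulated noise had 1 spread per gene, shared by the 3 groups. In the data, the median absolute log2 difference was 0.27 within the ICH pair and 0.13 within the acupuncture pair. The simulated shares may thus not hold for comparisons with ICH. Python 3.11.15, pandas 2.3.3, numpy 2.4.6, scipy 1.17.1 and matplotlib 3.10.9 were used for ratios, overlaps and figures. The members and all lists were chosen with earlier results of these data known. Genes named are the immunoproteasome genes, Psmb5, Psmb6, Psmb7 and Psme3, called members up to 8 per direction, and otherwise the 3 with the smallest p. For peaks they are the 8 strongest and up to 8 per differential table, of which the text gives a part. Psmd13, Psmb3, Psmd6, Psmd12 and Psmc6 were among those not detailed. Reads of members that overlap another gene could be shared: 20 members overlap an annotated gene, 7 of them a gene with at least 1 FPKM. Alternatives were another pseudocount (0.1), no filter and a mean of at least 5 FPKM, other scalings, no variance trend, a replicate block, fits of 2 groups, and leaving out each library. Some results on genes outside the members are not reported here.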

Additional observations from a re-analysis of the deposited data

How the results depend on the processing

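Psmb8 was called against sham in all alternatives that kept it, and dropping genes under a mean of 5 FPKM removed it, which left 1 member higher in each comparison with sham. Across fits that left out 1 library, members higher ranged from 1 to 17 in acupuncture against sham, 0 to 28 in acupuncture against ICH, 1 to 5 in ICH against sham and 2 to 7 in both haemorrhage groups against sham. Members lower ranged from 0 to 1 in acupuncture against ICH, 0 to 21 in ICH against sham and 0 to 6 in both haemorrhage groups against sham. With only the 2 groups compared, 17 were higher in acupuncture than sham. With a replicate block, ICH against sham called 1 member, since Psme1 had 0.77 with limma adjusted p = 0.0759, and the other counts were unchanged. Deviations of same-numbered samples correlated at -0.015 to 0.094. In a group of 2 libraries the deviations mirror each other, so these values cannot show whether same-numbered samples were paired. Peaks with log2 enrichment of at least 1 numbered 63 in acupuncture and 55 in sham, from 111 each. At adjusted p under 0.05, 38 differential peaks remained listed in acupuncture against sham. The FPKM hold no depth, so no counting error could be given for low members such as Psmb9. Without the filter, 3 members were higher in acupuncture than sham, Psmb9 among them.

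Signs turned under scaling to equal totals and under quantile normalization for Psme1 in acupuncture against ICH (-0.052 and -0.021), Psme3 in acupuncture against sham (-0.087 and -0.041) and Psmb5 in both haemorrhage groups against sham (-0.053 and -0.050). Scaling to equal totals also turned Psma3, Psmc5, Psmd1, Psmd2, Psmd7 and Psmd12 below zero in acupuncture against sham (-0.073 to -0.0025), and quantile normalization turned Psmc5, Psmd1 and Psmd9. Signs also turned, the cause not tested, when 1 library was left out. In ICH against sham, the log2 differences then ranged from -0.32 to 0.27 for Psmb10, -0.49 to 0.11 for Psmb5, -0.93 to 0.16 for Psmb6, -0.95 to 0.028 for Psmd4, -0.76 to 0.57 for Psme2 and -0.016 to 0.54 for Psme3. In acupuncture against ICH they ranged from -0.024 to 0.10 for Psme1 and -0.53 to 0.030 for Psme3. In acupuncture against sham they ranged from -0.080 to 0.0052 for Psmd5 and -0.040 to 0.067 for Psme3. In both haemorrhage groups against sham they ranged from -0.15 to 0.15 for Psmb5, -0.33 to 0.22 for Psmb6, -0.18 to 0.024 for Psmb7, -0.35 to 0.064 for Psmc5 and -0.0015 to 0.28 for Psme3. Differences of log2(FPKM + 1) within a pair kept their sign without any 1 library. They were 1.64 to 1.81 for Psmb8 over Psmb5, 0.759 to 1.06 for Psmb9 over Psmb6 and 0.300 to 0.438 for Psmb10 over Psmb7.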
